A study of Mus musculus with 16 samples.

Results

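The genes described here are 4 small leucine-rich proteoglycans, decorin (Dcn), lumican (Lum), fibromodulin (Fmod) and Prelp, taken by symbol from a deposited table of TPM values of which 5921 rows were used. All 4 symbols were found, and each matched 1 row. The study removed Atf4, which encodes a transcription factor of the amino acid and protein folding stress responses, from cardiomyocytes to ask what it does in heart development. RNA was sequenced from bulk ventricles of mouse embryos at E11.5, in 4 groups of 4 libraries. TPM, the unit of the table, scales for transcript length and for library total, so levels can be set beside each other between genes.

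In the exon 2-3 line the floxed Atf4 allele has loxP sites around exons 2 and 3, and in the exon 2 line around exon 2 alone. In either line the conditional knockout (cKO) carries the Xmlc2-Cre transgene, which acts in cardiomyocytes, so other cells of the ventricle keep the allele by design. The controls are named only as controls: whether they carried the floxed allele or Cre is not stated, and the genotype label reads C57BL/6 WT on all 16 libraries, cKO included. The 4 libraries of a group are biological replicates by the study's design, with tissue taken embryo by embryo, and whether embryos were pooled is not stated. Batch 1 of the labels holds all libraries of the exon 2-3 line and batch 2 all those of the exon 2 line, which means that effects of line and of batch cannot be told apart. Each cKO was therefore compared with the controls of its line. Atf4 itself was not analysed here, so the labels were not checked by the targeted gene.

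Small leucine-rich proteoglycans are secreted proteins whose core is built of leucine-rich repeats and often carries glycosaminoglycan chains. They bind collagen fibrils and shape their spacing and thickness, and some of them also bind growth factors and receptors. In the heart they are known chiefly from fibroblasts, epicardium-derived cells and valve mesenchyme. Decorin carries a chondroitin or dermatan sulfate chain and binds TGF-beta and the EGF receptor. Lumican and fibromodulin are relatives that can carry keratan sulfate and share binding sites on collagen. Prelp has a basic end that binds heparan sulfate and links collagen to basement membranes.

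The genes lie as neighbours in pairs (GRCm38). Dcn spans chr10:97479500-97518163 and Lum chr10:97565501-97572703, both on the plus strand and 47337 bases apart. Prelp spans chr1:133910304-133930102 on the minus strand and Fmod chr1:134037254-134048280 on the plus strand, 107151 bases apart. In GENCODE M21 the full-length coding model has 8 exons for Dcn and 3 exons each for Lum, Fmod and Prelp. None of the 4 rows overlaps another row of the table.

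Promoter windows of 250 bases before and 50 bases after the start site were taken from RefSeq (GRCm38.p6) for Fmod and Prelp, which lie near each other and differ in level. Entries matched 2 of the 4 genes, and the windows of Dcn and Lum were not used here. The 250 bases before the start are shown, 5′ to 3′, with the 50 nearest to the start in capitals, where the core promoter lies. They are chr1:134037004-134037253 on the plus strand for Fmod and chr1:133921402-133921651 on the minus strand for Prelp. The RefSeq start of Prelp lies inside the span of its row.
Fmod: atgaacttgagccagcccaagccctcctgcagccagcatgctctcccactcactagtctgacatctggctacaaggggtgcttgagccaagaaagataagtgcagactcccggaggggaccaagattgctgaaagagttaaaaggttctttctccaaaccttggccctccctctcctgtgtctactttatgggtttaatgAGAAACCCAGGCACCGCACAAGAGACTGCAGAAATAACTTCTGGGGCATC
Prelp: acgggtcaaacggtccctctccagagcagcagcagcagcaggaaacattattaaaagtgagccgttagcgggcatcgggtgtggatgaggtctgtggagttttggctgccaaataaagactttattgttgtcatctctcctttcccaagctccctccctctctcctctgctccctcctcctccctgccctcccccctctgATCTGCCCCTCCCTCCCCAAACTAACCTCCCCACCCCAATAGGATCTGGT

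The whole windows were searched on both strands for 5 motifs, and neither held any of them, so no overlap between motifs arose. The first, TGATGNAA, is the core of the element bound by ATF4 with C/EBP partners, and 3.97% of 32851 promoter windows of the same length held it. The second, TGACGT, is part of the cAMP response element, and 7.51% of windows held it. An AP-1 site was searched as TGANTCA, held by 7.81% of windows. A TATA box was searched as TATAAA, held by 13.6%. A GC box was searched as GGGCGG, held by 35.7%. The windows of Fmod and Prelp were 51.0% and 55.3% G or C, against a median of 52.7% over all windows.

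The tissue label was met by cardiomyocyte genes: the summed TPM of 5 markers (Tnnt2, Tnni1, Pln, Myl4 and Myocd) lay between 12997 and 14651 in the exon 2-3 line and between 9733 and 11324 in the exon 2 line. Pairs of libraries of the same group had Pearson's r from 0.982 to 0.992 over the 2620 tested genes, with log2(TPM + 1) as the scale, and no library stood apart by this measure. TPM keeps no depth, so the reads behind a value are unknown.

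Dcn was by far the most abundant of the 4, with a mean of 48.8 TPM over the 16 libraries, above 90.8% of the rows. Fmod (13.9 TPM) and Lum (13.2 TPM) were close to each other, above 75.9% and 75.3% of the rows. Prelp averaged 0.702 TPM and was the member that failed the filter on low values, a mean of at least 1 TPM. Dcn made up 70.6% of the summed TPM of the 4 genes in exon 2-3 controls and 53.8% in exon 2 controls. The other family members in the rows used, Optc, Epyc and Chad, had group means between 0.0928 and 0.632 TPM and were not tested.

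**Figure D1:**
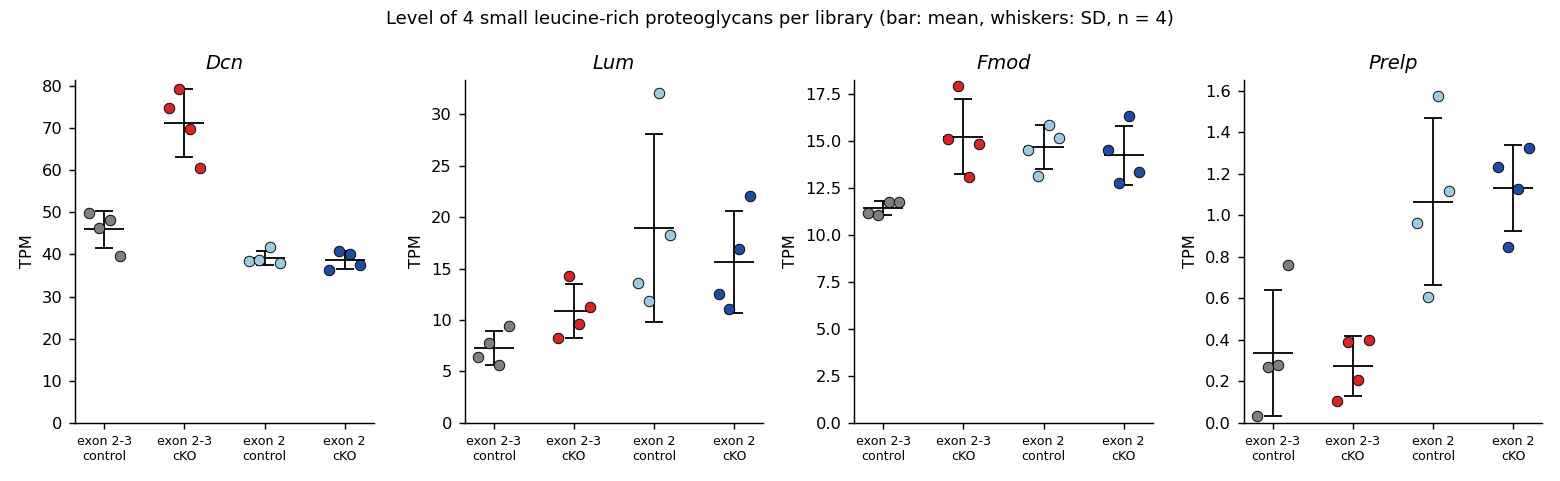
TPM of Dcn, Lum, Fmod and Prelp in each library, by group; points are libraries, the short bar is the mean and the whiskers are the SD (n = 4). All 4 exon 2-3 cKO libraries lie above all 4 of their controls for Dcn and Fmod, while both groups of the exon 2 line overlap for every gene.

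The first comparison asked how the deletion of exons 2 and 3 changed these genes. Dcn and Fmod rose in the cKO, Lum was higher on average without passing the test, and Prelp stayed under 1 TPM in every library of the line. Of the 3 members tested, 2 passed an adjusted p of 0.05 (limma), both higher. Over all 2620 genes 4.16% were called higher in this line and 6.72% in either direction, 21.1% had an unadjusted p under 0.05, and 9.24% were higher in every cKO library than in every control. The members' median log2 fold change was 0.51, and that of all genes tested was 0.032.

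Dcn was at 49.8, 46.2, 48.2 and 39.6 TPM in the exon 2-3 controls and at 74.9, 79.4, 69.8 and 60.5 TPM in the cKO (replicates 1 to 4). The lowest cKO library was well above the highest control, and replicate 4 was the lowest of each group. The mean went from 46.0 ± 4.47 to 71.1 ± 8.09 TPM (SD, n = 4 each), a log2 fold change of 0.62 (SE 0.095, 95% interval 0.41 to 0.83, limma adjusted p 0.00635). By size of p it was gene 30 of the 2620. The exact two-sided permutation test over the 8 libraries gave p = 0.0286, the smallest that 4 against 4 allows. Leaving out any 1 of the 8 libraries kept the call (log2 fold change 0.55 to 0.69), as did all 10 other settings tried (largest adjusted p 0.0483).

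Fmod was at 11.2, 11.04, 11.7 and 11.8 TPM in the exon 2-3 controls and at 15.1, 17.9, 13.1 and 14.9 TPM in the cKO. The controls were within 1 TPM of each other and all cKO libraries were above them, with replicate 2 the highest. The mean went from 11.4 ± 0.377 to 15.2 ± 2.00 TPM, a log2 fold change of 0.38 (SE 0.090, 95% interval 0.18 to 0.58, limma adjusted p 0.0361, exact permutation p = 0.0286). This call was close to the threshold. It was lost on leaving out any library but cKO replicate 3 (7 of 8 refits), with adjusted p-values between 0.0335 and 0.0998. It was also lost without a filter on low values (adjusted p 0.101), after quantile normalisation (0.0695) and after centring on the library median (0.0536), while the direction held throughout.

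Lum was at 6.40, 7.77, 5.60 and 9.39 TPM in the exon 2-3 controls and at 8.22, 14.3, 9.60 and 11.2 TPM in the cKO. Control replicate 4 lay among the cKO libraries, and the 3 cKO libraries other than replicate 1 were above all controls. The means were 7.29 ± 1.66 and 10.8 ± 2.62 TPM. The log2 fold change was 0.51 (SE 0.18, 95% interval 0.12 to 0.90), with an unadjusted p of 0.0164 and a limma adjusted p of 0.127, so it did not pass, and no setting tried brought it past the threshold (lowest adjusted p 0.0513). The exact permutation test gave p = 0.0571. The spread between libraries, 22.8% of the mean in controls, was larger than that of Dcn (9.72%) or Fmod (3.30%).

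Prelp was at 0.0347, 0.269, 0.277 and 0.762 TPM in the exon 2-3 controls and at 0.104, 0.390, 0.206 and 0.400 TPM in the cKO. Control replicate 4 was the highest library and control replicate 1 the lowest, so the cKO values lay inside the control range. In the fit without a filter, in which 1.47% of 5921 rows were called, its log2 fold change was -0.047 (95% interval -0.45 to 0.36, limma adjusted p 1). The sign turned without control replicate 4 (0.095) and without cKO replicate 1 (0.020).

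**Figure D2:**
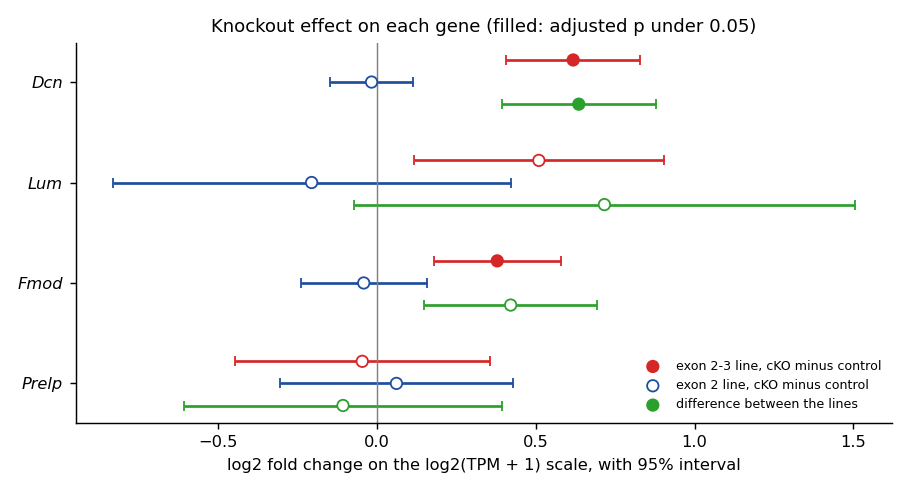
Knockout effect on each gene as a log2 fold change on the log2(TPM + 1) scale, with 95% intervals from limma, for the exon 2-3 line, the exon 2 line and the difference between lines; filled points have an adjusted p under 0.05. Dcn is filled in the exon 2-3 line (0.62) and for the difference (0.64), Fmod in the exon 2-3 line (0.38).

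The second comparison asked the same of exon 2 alone, and none of the 4 genes passed the test. Of the 3 members tested 0 were called by limma, and 0 had an unadjusted p or an exact permutation p under 0.05. In this line 2 of 2620 genes (0.0763%) were called, 3.21% had an unadjusted p under 0.05, and 1.83% had groups that did not overlap.

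Dcn was at 38.5, 38.6, 41.7 and 38.0 TPM in the exon 2 controls and at 36.4, 40.8, 40.2 and 37.6 TPM in the cKO. The groups overlapped and every library lay within 6 TPM of every other. The means were 39.2 ± 1.68 and 38.7 ± 2.09 TPM, with a log2 fold change of -0.018 (SE 0.059, limma adjusted p 0.999). Its 95% interval, -0.15 to 0.11, does not reach the rise of 0.62 in the exon 2-3 line.

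Lum varied more in the exon 2 line than any other tested member, at 13.6, 11.8, 32.0 and 18.3 TPM in controls and 12.5, 11.1, 16.9 and 22.1 TPM in the cKO. Control replicate 3 alone was above 30 TPM. That library was also the highest exon 2 control for Dcn, Fmod and Prelp. The same held for the collagen genes Col1a1, Col3a1 and Col5a2, though not for Fn1 or Tcf21. Without it the log2 fold change was 0.0115 for Dcn, -0.00585 for Fmod and 0.174 for Prelp (no filter). The log2 fold change of Lum was -0.21 (SE 0.28, 95% interval -0.83 to 0.42, limma adjusted p 0.999), and it was 0.070 without that library, so the sign rested on it. An effect of the size of Dcn's rise was not within this interval, whereas a fall of the same size was.

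Fmod was at 14.5, 13.1, 15.9 and 15.2 TPM in the exon 2 controls and 14.5, 12.8, 16.3 and 13.3 TPM in the cKO, with a log2 fold change of -0.042 (95% interval -0.24 to 0.16). Prelp was at 0.963, 0.608, 1.58 and 1.12 TPM in controls and 1.23, 0.846, 1.12 and 1.32 TPM in the cKO, with a log2 fold change of 0.061 (95% interval -0.31 to 0.43) in the fit without a filter, where 0.0507% of rows were called. For either gene the groups overlapped, and limma's adjusted p was 0.999 for Fmod and 1 for Prelp.

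Whether the knockout effect differed between the lines was tested by the interaction term over all 16 libraries, which passed for 62 of 2620 genes (2.37%). Dcn was among them, with a difference of 0.64 (SE 0.11, 95% interval 0.39 to 0.88, limma adjusted p 0.00505), which stayed called on leaving out any 1 of the 16 libraries and in the 9 other settings. Fmod (0.42, SE 0.13, adjusted p 0.106) and Lum (0.72, SE 0.37, adjusted p 0.401) did not pass, so no difference between the lines was shown for them. Fmod passed without exon 2 cKO replicate 3 (adjusted p 0.0484). The term of Lum was 0.44 without exon 2 control replicate 3 and 0.90 without exon 2 control replicate 2, and it passed in neither case. For Prelp the term was -0.11 (95% interval -0.61 to 0.39, adjusted p 0.963, 0.692% of rows called without a filter). Its sign turned without exon 2-3 control replicate 4 (0.034) or exon 2 control replicate 2 (0.0059).

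The control groups of the lines differed in these genes with no knockout involved, in opposite directions for Dcn and the rest. Lum (-1.19, SE 0.26, limma adjusted p 0.00144), Fmod (-0.33, SE 0.091, adjusted p 0.00619) and Prelp (-0.64, SE 0.16, adjusted p 0.0119 without a filter) were lower in exon 2-3 controls. Dcn was higher there (0.22, SE 0.081, adjusted p 0.0319), although exon 2-3 control replicate 4 lay among the exon 2 controls. Of all genes tested 52.6% were called in this comparison (14.4% higher and 38.1% lower in exon 2-3 controls), and 23.8% of rows in the fit without a filter. The members' calls are to be read against those shares. With a pseudocount of 0.1 the difference of Prelp was -1.64 (adjusted p 0.023), since a pseudocount of 1 compresses values this low. The median over all genes was -0.14. After centring on the library median Fmod was at -0.15 (adjusted p 0.167) and Dcn at 0.40 (adjusted p 0.00292). In the values as deposited Dcn was not called in 6 of 16 refits without 1 library (without exon 2-3 control replicate 1, 2 or 3, or exon 2 control replicate 1, 2 or 4; adjusted p up to 0.0991).

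The order of the groups was not the same for any 2 of the tested members. For Dcn the exon 2-3 cKO (71.1 TPM) stood above the exon 2-3 controls (46.0 TPM), with both exon 2 groups lowest and not apart from each other. For Fmod the exon 2-3 controls (11.4 TPM) stood below the other groups, which overlapped between 12.8 and 17.9 TPM. For Lum the exon 2-3 controls (7.29 TPM) were lowest, then the exon 2-3 cKO (10.8 TPM), with the exon 2 cKO (15.6 TPM) and controls (18.9 TPM) highest, and neighbours in this order overlapped. Prelp was at 0.275 to 0.336 TPM in the exon 2-3 groups and 1.07 to 1.13 TPM in the exon 2 groups, with overlap within each line.

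The collagens that these proteins bind were read from a list of 9 genes, of which 6 were in the rows used and tested. In the exon 2-3 cKO 3 of the 6 rose and 0 fell, with a median log2 fold change of 0.26. Over all genes tested 4.16% were called higher in this line, the share to set beside this list and those below. Col1a1, a chain of type I collagen, averaged 44.0 ± 4.49 TPM in controls and 69.9 ± 9.56 TPM in the cKO, a rise of 0.65 on the log2 scale (SE 0.10, limma adjusted p 0.00652). Col3a1, the chain of type III collagen, rose from 144 ± 17.2 to 198 ± 5.79 TPM (0.46, adjusted p 0.00939). Col5a2, a chain of the type V collagen found inside fibrils, rose by less (0.32, adjusted p 0.0232) and was not called in 5 of 8 refits without 1 library. Without a filter Col3a1 (adjusted p 0.0572) and Col5a2 (0.0766) lost their calls, which left 1 of the 6. In the exon 2 line 0 of the 6 were called by limma and 0 had an unadjusted p under 0.05, with a median of -0.064.

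Of 19 genes that process or bind collagen, 12 were in the rows used and 10 were tested. Here 2 rose in the exon 2-3 cKO and 0 fell, with a median of 0.25. Fn1, which encodes the matrix glycoprotein fibronectin, rose from 366 ± 26.5 to 629 ± 29.7 TPM (0.78, SE 0.062, limma adjusted p 0.000107), a call kept in all 8 refits without 1 library, and its interaction term was 0.65 (adjusted p 0.00131). Sparc, a collagen-binding glycoprotein, rose from 708 ± 64.0 to 867 ± 37.5 TPM (0.30, adjusted p 0.0361) and was called in 2 of those 8 refits. Sparc's adjusted p was 0.120 without a filter and 0.0645 without the intensity trend. Ddr2, a receptor for fibrillar collagen, had log2 fold changes of 0.21 in the exon 2-3 line and 0.60 in the exon 2 line (adjusted p 0.352 and 0.703), neither called, and its row overlaps another gene. In the exon 2 line 0 of the 10 were called, and 1 (Ddr2) had an unadjusted p under 0.05.

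Of 18 genes that build glycosaminoglycan chains, 14 were in the rows used and 13 were tested, of which 1 rose in the exon 2-3 cKO and 0 fell (median 0.12). With 4.16% of all genes called higher, this count is not read as a result about the list. The gene that rose was B3gnt7, an enzyme that extends keratan sulfate, at 4.53 ± 0.8285 TPM in controls and 6.95 ± 0.960 TPM in the cKO (0.53, SE 0.13, limma adjusted p 0.0396). Its call was kept in 1 of 8 refits without 1 library and lost without a filter (adjusted p 0.132), which left 0 of the list called, and its row overlaps another gene. Dse, the epimerase that makes dermatan sulfate, had a log2 fold change of 0.26 (adjusted p 0.0886), and it passed after quantile normalisation (0.0423) and after rescaling without hemoglobin genes (0.0247). Chpf, which polymerises chondroitin, was at 0.26 (adjusted p 0.127). In the exon 2 line 0 of the 13 were called and 0 had an unadjusted p under 0.05, with a median of -0.066.

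Of 10 ligands and receptors that these proteoglycans are known to bind, 4 were in the rows used and tested, and 2 rose in the exon 2-3 cKO (median 0.49). Tgfb2, a ligand of the TGF-beta family, was at 20.3 ± 3.48 TPM in controls and 31.3 ± 5.31 TPM in the cKO (0.60, SE 0.14, limma adjusted p 0.0361). Egfr, the EGF receptor, was at 0.987 ± 0.140 and 1.78 ± 0.285 TPM (0.48, adjusted p 0.0361). Without 1 library, Tgfb2 was called in 2 of 8 refits and Egfr in 0 of 8. Without a filter neither was called (adjusted p 0.154 and 0.0767), which left 0 of the 4; Egfr was also lost after quantile normalisation (0.0585) and Tgfb2 without the intensity trend (0.051). Igf1, a growth factor, had a log2 fold change of 0.49 without passing (adjusted p 0.105), and the rows of all 3 overlap others. In the exon 2 line 0 of the 4 were called and 0 had an unadjusted p under 0.05.

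**Figure D3:**
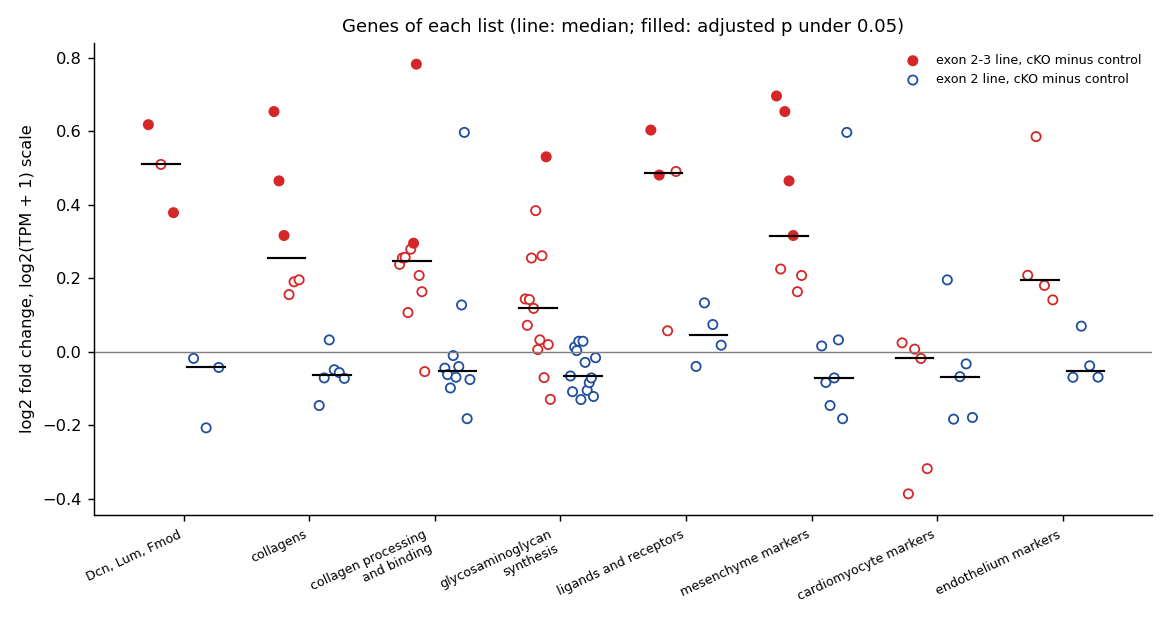
Log2 fold change of every tested gene of each list by line; points are genes, filled where the adjusted p is under 0.05, and the line is the list's median. Medians in the exon 2-3 line run from 0.51 for Dcn, Lum and Fmod to -0.018 for cardiomyocyte markers, with 0.26 for collagens. No point of the exon 2 line is filled. Erythroid, leukocyte and cartilage markers are not drawn. The mesenchyme list shares Col1a1, Col3a1, Col5a2, Ddr2 and Mfap4 with other lists.

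Some markers of epicardium, fibroblasts and mesenchyme rose in the exon 2-3 cKO, as Dcn did. Of 12 such markers 8 were in the rows used and 7 tested, and 4 rose in the exon 2-3 cKO: Tcf21, Col1a1, Col3a1 and Col5a2. Tcf21, a transcription factor of the epicardium and cardiac fibroblasts and the one of the 4 that codes for no collagen, was at 36.3, 31.2, 34.6 and 39.6 TPM in exon 2-3 controls and 62.4, 58.9, 56.7 and 53.6 TPM in the cKO. Its groups did not overlap (log2 fold change 0.70, SE 0.078, limma adjusted p 0.000969, called in 8 of 8 refits without 1 library), and its interaction term was 0.68 (adjusted p 0.00255). Its row overlaps a gene on the other strand, and strand use in the authors' counting is not stated. Prrx1 (0.23), Mfap4 (0.16) and Ddr2 (0.21) did not pass. Between the control groups all 7 tested markers were called lower in the exon 2-3 line (limma, median -0.74), while Dcn was higher there (0.22). Of all genes tested 38.1% were called lower in that comparison. The summed TPM of the 8 markers was 284 to 343 in exon 2-3 controls, 431 to 455 in the cKO, 457 to 638 in exon 2 controls and 445 to 585 in the exon 2 cKO. No marker was at 0 in every library, and Twist2 was at 0 in 1 exon 2-3 cKO library. In bulk ventricle more cells of a type and more RNA per cell cannot be told apart, and the part of cell numbers in the rise of Dcn was not tested.

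Of the tested markers 0 of 5 for cardiomyocytes, 0 of 4 for endothelium, 0 of 4 for erythroid cells and 0 of 3 for macrophages and leukocytes were called by limma, with 2, 1, 0 and 2 of them at an unadjusted p under 0.05. Over all genes tested in the exon 2-3 line 6.72% were called and 21.1% had such a p. The 2 cardiomyocyte markers with such a p were lower in the cKO, Tnni1 with a log2 fold change of -0.39 and Myocd, a coactivator of muscle genes, with -0.32. All 4 endothelial markers had positive log2 fold changes (median 0.19), and 1 of them was called higher after quantile normalisation and after either rescaling without hemoglobin genes. Of the cartilage and tendon markers only Col9a1 was tested (adjusted p 0.698), and Epyc, Chad and Col10a1 had group means under 1 TPM. The erythroid sum varied most, from 1512 to 11293 TPM within the exon 2-3 cKO, and rescaling without hemoglobin genes kept the calls of Dcn and Fmod. That rescaling dropped only the hemoglobin genes among the rows used and scaled to the other rows used, not to a whole library. The cardiomyocyte sum was 13539 to 14651 TPM in exon 2-3 controls and 12997 to 14053 TPM in the cKO, which overlapped.

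Ratios within a library do not depend on scaling between libraries. The ratio of Dcn to Col1a1 lay between 0.987 and 1.10 in exon 2-3 controls and between 0.923 and 1.15 in the cKO, which overlapped. In the exon 2 line it lay between 0.287 and 0.498 in controls and between 0.337 and 0.546 in the cKO, below every exon 2-3 library. The ratio of Dcn to Tcf21, added after the values were seen, lay between 1.00 and 1.48 in exon 2-3 controls and between 1.13 and 1.35 in the cKO, which overlapped. The ratio of Dcn to Lum lay between 4.22 and 8.61 in exon 2-3 controls, 5.40 and 9.11 in the cKO, 1.30 and 3.27 in exon 2 controls and 1.70 and 3.69 in the exon 2 cKO. Within each line these ratios overlapped between cKO and control, as did those of Dcn to Fmod and to Col3a1. From control to cKO in the exon 2-3 line, the mean log2 ratio of Dcn changed by -0.037 to Col1a1 and -0.083 to Tcf21. It changed by 0.060 to Lum, 0.16 to Col3a1 and 0.22 to Fmod. With 4 libraries against 4, overlap does not show that genes changed by the same factor. The exception among the 7 ratios computed was Fmod to Col1a1, at 0.235 to 0.312 in exon 2-3 controls and 0.202 to 0.232 in the cKO, which did not overlap, with the lower ratios in the cKO. No p is given for these ratios.

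**Figure D4:**
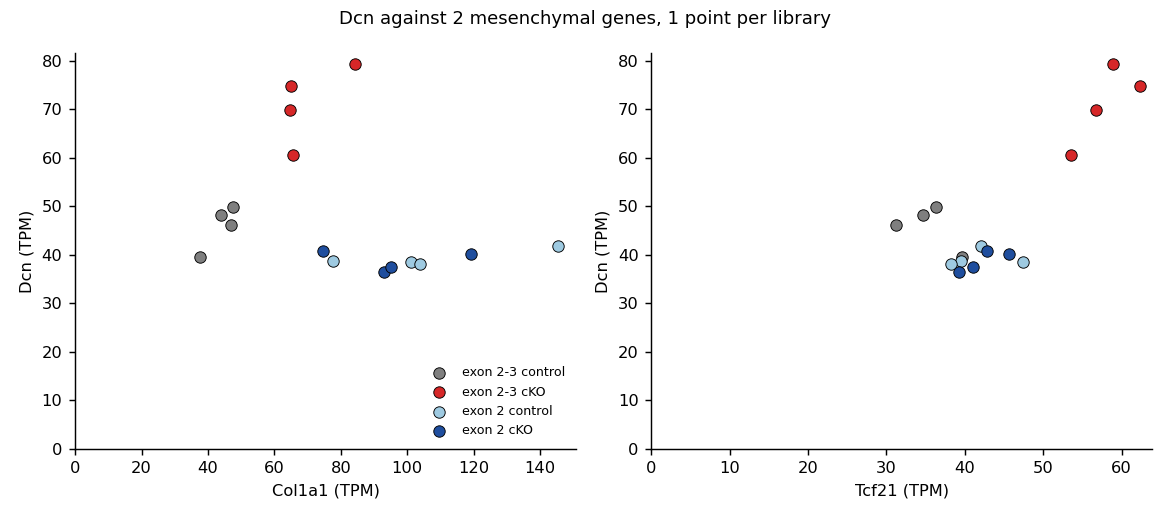
TPM of Dcn (vertical) against Col1a1 (left) and Tcf21 (right), 1 point per library, coloured by group. The exon 2-3 cKO libraries lie above and to the right of their controls on either panel, while the exon 2 libraries keep Dcn between 36.4 and 41.7 TPM as Col1a1 runs from 74.8 to 145 TPM.

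The genes whose pattern over the 16 libraries was most like each member were found by Pearson's r of log2(TPM + 1), each line centred on its own mean, so that knockout effects stay in and r is a description of shared libraries. For Dcn these were Ccng1 (r = 0.92), Gm11992 (0.89) and Zfp365 (0.89). For Fmod they were Gm11992 (0.89), Sertad4 (0.88) and Col1a1 (0.88). For Lum they were Cacna1g (0.91), Traf5 (0.90) and Dnm3os (0.86). For Prelp they were Mstn (0.88), Tmem26 (0.87) and Col6a3 (0.86). These are the highest of all genes tested, so pairs of members, taken by symbol, could not lie above them. The genes listed for Dcn had log2 fold changes of 1.515 (Ccng1), 0.64 (Gm11992) and 1.65 (Zfp365) in the exon 2-3 cKO. Zfp365 averaged 4.08 TPM there and 0.614 to 0.975 TPM in the other groups. It passed the filter only through the group where Dcn was highest, so a high r was in part built in. Between members r was 0.77 for Dcn and Fmod, 0.63 for Lum and Fmod, and 0.64 for Lum and Prelp. It was 0.38 for Dcn and its neighbour Lum, 0.24 for Fmod and Prelp, and -0.26 for Dcn and Prelp. Among the genes tested Fmod took place 41 for Dcn, Dcn place 36 for Fmod and Lum place 33 for Prelp. Lum took place 475 for Dcn, and Dcn place 2335 for Prelp.

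Genes near the members did not share one direction. Within 500 kb of the Dcn to Epyc region 12 rows were used, and Dcn and Lum were the ones that passed the filter. Within 500 kb of the Optc to Fmod region 16 rows other than Fmod were tested, of which Btg2 and Ppfia4 rose and Snrpe fell in the exon 2-3 cKO (limma), and in the exon 2 line 0 were called. Over all genes tested 6.72% were called in either direction in the exon 2-3 line. Btg2, an antiproliferative gene 26584 bases beyond the end of Fmod, went from 22.1 ± 1.24 to 39.8 ± 2.27 TPM, a larger change (0.82) than that of Fmod. These 3 genes were named after their values were seen.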

How the data were processed

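The values are TPM from a single table deposited by the authors, scaled to transcript length and library total. Per the submitters' processing notes, the tools were FastQC, Trim Galore 0.6.7, HISAT2 2.2.1, StringTie 2.2.1, featureCounts and DESeq2, with build GRCm38. Which of them made the TPM, and whether counting used the strand, is not given in the sources used here. The labels' protocols name both stranded mRNA and ribosomal depletion libraries, and their extraction text names cortical neurons although every tissue label names ventricular heart. The rows used lie on chromosomes 1, 10 and 11 (up to position 106501211) and held 15.2% to 17.1% of a library's TPM. A last row without values was left out. Coordinates of 5919 rows equalled RefSeq's on GRCm38.p6.

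Values were tested as log2(TPM + 1), which understates changes of low genes, for the 2620 genes whose mean reached 1 TPM, with limma 3.58.1 in R 4.3.3, where eBayes modelled a trend in intensity. Each line was fitted on its 8 libraries, and the interaction and the control comparison on all 16, with Benjamini-Hochberg adjustment over all genes tested and a threshold of 0.05. Prelp was tested in the fit without the filter. Standard errors and 95% intervals are limma's moderated ones, and tests are two-sided. The procedure was also run on simulated data with independent noise for each gene and no shift shared by a library. That run therefore does not show how it performs on these libraries. Exact permutation tests used scipy 1.17.1. Labels do not tie libraries to litters, so the tests take the libraries as independent, which could not be checked.

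The members, lists and rules were chosen with earlier results of these data known. From each list the 3 genes with the smallest p in either line are named, and for each member the 3 genes most like it. Tcf21 was named after its values were seen. Alternatives were a pseudocount of 0.1, no filter, a minimum mean TPM of 5, quantile normalisation, median centring, rescaling without hemoglobin genes, one fit over all libraries, a fit without the trend, a block for the replicate number, and leaving out each library. A rescaling also without Gm10222 and Gm10925, and the alternatives for lists, were chosen after seeing the data.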

Additional observations from a re-analysis of the deposited data

Results flagged for a closer look

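The knockout effect differed between the lines by the interaction term for Dcn (0.635 on the log2 scale, limma adjusted p 0.00505), for Fn1 (0.655, adjusted p 0.00131) and for Tcf21 (0.68, adjusted p 0.00255). For each of these the 4 exon 2-3 cKO libraries were above all 4 of their controls, as for 9.24% of all genes tested.

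A library far from the others of its group, for that group's range, was met in 5 of 68 groups of 4 examined, where chance gives about 1 in 20. The groups share the same 16 libraries and are not independent, so this rate is only a rough guide. The gap to the nearest library, as a share of the group's range, was 0.831 for Dcn in exon 2 controls (replicate 3, at 41.7 TPM). It was 0.958 for Col1a1 in the exon 2-3 cKO, where replicate 2 was at 84.3 TPM and the others between 64.8 and 65.6 TPM. Without that library Col1a1 had a log2 fold change of 0.56. It was 0.938 for Col3a1 in the exon 2-3 cKO (replicate 4, at 206 TPM), 0.946 for Col5a2 in exon 2 controls and 0.911 for Igf1 in the exon 2-3 cKO. A share of the range also marks libraries of tight groups, such as Col3a1 in the exon 2-3 cKO, between 194 and 206 TPM.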

How the results depend on the processing

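In the exon 2-3 line the rise of Dcn kept its call under every alternative tried. The log2 fold change of Fmod was 0.38 without a filter (adjusted p 0.101), 0.32 after quantile normalisation (0.0695) and 0.33 after median centring (0.0536), and with 1 library left out it ran from 0.30 to 0.44; none of these changes turned its direction, and the cause was not tested. With the replicate number as a block Fmod was at 0.38 (adjusted p 0.0651) and 149 genes were called, and no other call on a member changed. Col5a2 (0.0513), B3gnt7 (0.0656) and Egfr (0.0663) also lost their calls with the block, while 1 of 4 endothelial markers was then called higher and 1 of 5 cardiomyocyte markers lower. Same-numbered libraries correlated between -0.029 and 0.21 in the exon 2-3 line and 0.064 and 0.20 in the exon 2 line. The best match of a control was the cKO library of its own number for 1 of 4 controls in the exon 2-3 line and 3 of 4 in the exon 2 line. The numbers were not taken to pair the libraries in either line, although for the exon 2 line these matches cannot decide whether they do. Signs that turned with 1 library left out ran from -0.16 to 0.095 for Prelp in the exon 2-3 line, and in the exon 2 line from -0.043 to 0.012 for Dcn, from -0.39 to 0.070 for Lum, from -0.11 to 0.0039 for Fmod and from -0.053 to 0.17 for Prelp. Dcn in the exon 2 line was at 7e-04 after rescaling without hemoglobin genes, Gm10222 and Gm10925. Interaction terms ran from -0.22 to 0.034 for Prelp and from 0.34 to 0.49 for Fmod, and from 0.44 to 0.90 for Lum with no call. Between controls, Dcn was at 0.22 without a filter (adjusted p 0.0727) and 0.18 after that rescaling (0.107), against 0.40 after median centring (0.00292) and 0.31 after quantile normalisation (0.0109), and ran from 0.18 to 0.29 with 1 library left out. Fmod there was at -0.15 after quantile normalisation and -0.15 after median centring.

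The count of genes called in the exon 2-3 line was 176 (109 higher). It was 87 without a filter, 311 (157 higher) after quantile normalisation, 343 (142 higher) after median centring, 269 after rescaling without hemoglobin genes and 282 without the 2 further rows, and it ran from 70 (without cKO replicate 3) to 190 with 1 library left out. In the exon 2 line 2 genes became 4 in one fit over all libraries and without control replicate 3. Depth is unknown, and Prelp lies too low for its effect to be read firmly.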
